A study of Homo sapiens with 12 samples.

Results

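The axon guidance ligands and receptors expressed by cultured human adipocytes are described here. The set was chosen by gene symbol alone: the semaphorins of classes 3 to 7, the A, B, C and D plexins, both neuropilins, the Slits and Robo receptors, the netrins NTN1, NTN3 and NTN4, the UNC5 receptors, and the Eph receptors with their ephrin ligands. This gave 67 of the 28901 named genes in the count table. Of these, 58 had at least 10 counts over the 12 libraries and were tested. The members nearest that limit were EFNA2, with 9 counts in total and not tested, and SLIT1, with 16 in total and tested.

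The libraries came from ASC52telo hTERT, a line of human adipose stromal cells immortalized with telomerase, carried through 14 days of adipocyte culture. All 4 groups had received a lentiviral shRNA vector with the green marker ZsGreen, had been sorted for green cells, and had been given insulin, dexamethasone, isobutylmethylxanthine, rosiglitazone, pantothenate and biotin for 7 days and then insulin, dexamethasone, pantothenate and biotin for 7 more. The scramble control carried a scramble shRNA and the linc-ADAIN KD (knockdown) an shRNA against linc-ADAIN, a long intergenic non-coding RNA. Each was left without LPS (bacterial lipopolysaccharide) or given 100 ng/mL LPS for 4 h, with 3 libraries per group. The groups are written scramble, scramble_LPS, KD and KD_LPS where a single library is named. One line and 1 hairpin were used, and the study describes the RNA-seq as 1 experiment in triplicate, so p-values measure the spread between these libraries only. The targeted linc-ADAIN transcript was not analysed here, so that the knockdown was not checked in these libraries.

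Guidance cues were named for steering growing axons, and the same proteins act on blood vessels, bone and immune cells. Class 3 semaphorins are secreted and bind neuropilins, which pass the signal on through plexins, whereas most other semaphorins bind plexins directly. Slits are secreted proteins bound by Robo receptors, netrins are bound by UNC5 receptors and by DCC, and ephrins are held on the cell surface and bind Eph receptor tyrosine kinases on the neighbouring cell.

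Counts on named genes ranged from 28.4 to 53.8 M (units of 1e6) per library, and members took 0.284% to 0.328% of them in the scramble libraries and 0.197% to 0.213% in the KD libraries. The cells had adipocyte markers: the 10 in the list used here summed to 3494 to 4792 CPM (counts per 1e6, after TMM scaling) in scramble control without LPS and to 4001 to 4736 CPM with LPS, but to 766 to 2054 CPM in KD and 625 to 1334 CPM in KD with LPS. Of the 10 adipocyte markers, 8 were lower in KD without LPS and 9 with LPS, where 14.3% and 14.1% of all genes were. None was at 0 throughout a group, but LPL was close to it, with group means of 0.055 to 0.787 CPM. The 10 stromal and preadipocyte markers, of which DLK1 was at 0, summed to 7310 to 8974 CPM in scramble control, 7120 to 8111 CPM with LPS, 9687 to 11527 CPM in KD and 11059 to 12640 CPM in KD with LPS. They went both ways, with 4 higher and 3 lower in KD without LPS and 3 and 3 with LPS: DCN rose from 2671 to 4904 CPM without LPS while THY1 fell from 764 to 148 CPM. The 8 endothelial markers summed to 8.50 to 27.5 CPM over all groups with CLDN5 at 0. The 8 macrophage and leukocyte markers summed to 60.0 to 75.0 CPM in the scramble groups and 83.4 to 124 CPM in the KD groups, with AIF1 and TYROBP at 0. Of these, CD163 rose from 4.33 to 68.6 CPM without LPS and carried the higher sum, while CD68 fell from 53.6 to 31.1 CPM. The 8 neuronal and Schwann cell markers summed to 89.5 to 130 CPM over all groups with SOX10 at 0. In bulk RNA, fewer cells of a type and less RNA per cell cannot be told apart, and the part of these marker levels in the differences given next was not tested.

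In scramble control, a few members carried most of the guidance RNA. Levels between genes were compared per length, as CPM per kb of the canonical transcript. NRP1, a neuropilin that binds class 3 semaphorins and VEGF, was highest at 132 ± 9.29 CPM per kb (SD, n = 3 libraries, as for the other levels). It was followed by PLXND1, a plexin known for its part in vessel patterning, at 55.6 ± 2.14 CPM per kb, and SLIT3, a secreted Slit, at 48.5 ± 5.09 CPM per kb. The spreads of PLXND1 and SLIT3 overlapped, whereas NRP1 stood clear of both by this length. SEMA3C, a secreted semaphorin, was at 36.6 ± 2.17 CPM per kb, its partner NRP2 at 27.2 ± 1.72 and the plexin PLXNA1 at 19.3 ± 1.09. EFNB1, an ephrin-B ligand, was at 18.2 ± 1.19 CPM per kb, a spread that overlapped that of PLXNA1. SEMA7A, a semaphorin held to the membrane by a lipid anchor, was at 11.9 ± 1.49 CPM per kb. Its spread overlapped those of PLXNA4, EPHA4 and PLXNB2. These 8 members made up 78.2% of the summed level of all members tested, and NRP1 alone 29.5%. In all, 27 of the 58 tested members reached 1 CPM per kb. The same summed level was 446 CPM per kb in scramble control, 498 with LPS, 311 in KD and 334 in KD with LPS.

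**Figure D1:**
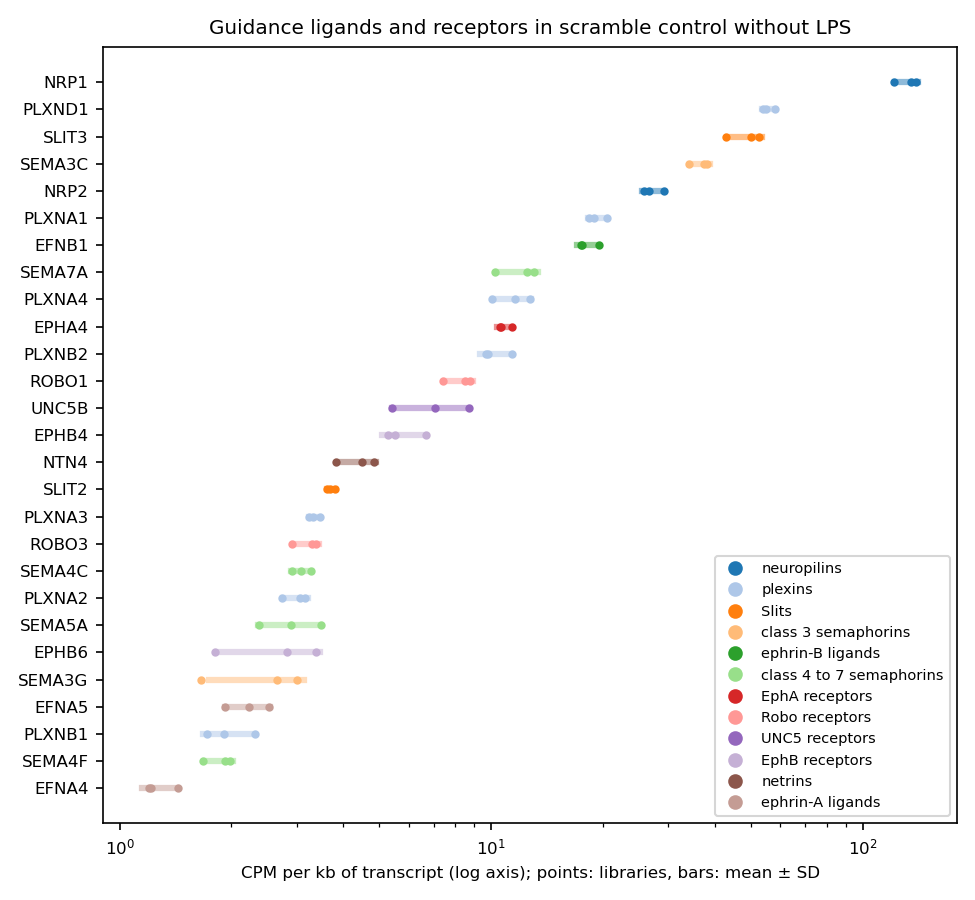
Level of the 27 members at or above 1 CPM per kb in scramble control without LPS, on a log axis of CPM per kb of transcript. Points are the 3 libraries and bars the mean ± SD, coloured by family. NRP1 lies at 132 CPM per kb, above every other member, and EFNA4 is lowest at 1.28.

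The plot of levels in scramble control shows RNA of both a ligand and a receptor for semaphorins, Slits, netrins and ephrins. These were SEMA3C with NRP1, NRP2 and 4 A-type plexins, and SLIT3 with ROBO1 at 8.21 CPM per kb. Also seen were NTN4 at 4.38 with UNC5B at 7.07, and EFNB1 with EPHB4 at 5.82 and EPHA4 at 10.8. They are set together by family, and whether each pair binds was not tested. Some other ligands of these families were near 0 in scramble control, with 3 to 5 counts per library for NTN1 and 0 to 10 for EFNB2. Others were not, among them SLIT2 at 3.70 CPM per kb, SEMA3G at 2.44 and EFNA5 at 2.23. By contrast, 9 members had under 10 counts over the 12 libraries: EFNA2, EPHA3, EPHA6, EPHA7, EPHA8, NTN3, SEMA5B, UNC5A and UNC5D. Of these, EPHA6, NTN3, SEMA5B and UNC5A had 0 counts in every library.

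The first question was which guidance genes differed with the linc-ADAIN shRNA. Without LPS, 22 of the 58 members (37.9%) were called at an adjusted p under 0.05 by edgeR's quasi-likelihood test, 8 of them higher and 14 lower in KD, where 25.5% of all 17173 genes tested did so (11.2% higher and 14.3% lower). With at least a 2-fold difference besides, the study's threshold, there were 14 members, or 24.1% against 7.26% of all genes. The groups did not overlap for 36 members (62.1%) against 40.3% of all genes. The median log2 fold change was -0.25 for the members and 0.01 for all genes. With LPS in both arms, 25 members (43.1%) were called, 9 higher and 16 lower, against 26.9% of all genes (12.7% higher and 14.1% lower), and 16 of them (27.6%) by at least 2-fold against 8.3%. The groups did not overlap for 33 members (56.9%) against 37.9% of all genes. These comparisons use different libraries. They had 16 called members in common, all 16 in the same direction, while 6 members were called without LPS only, 9 with LPS only and 27 in neither. Being called on one side only is not a difference between the sides, which was tested as the interaction given further on.

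**Figure D2:**
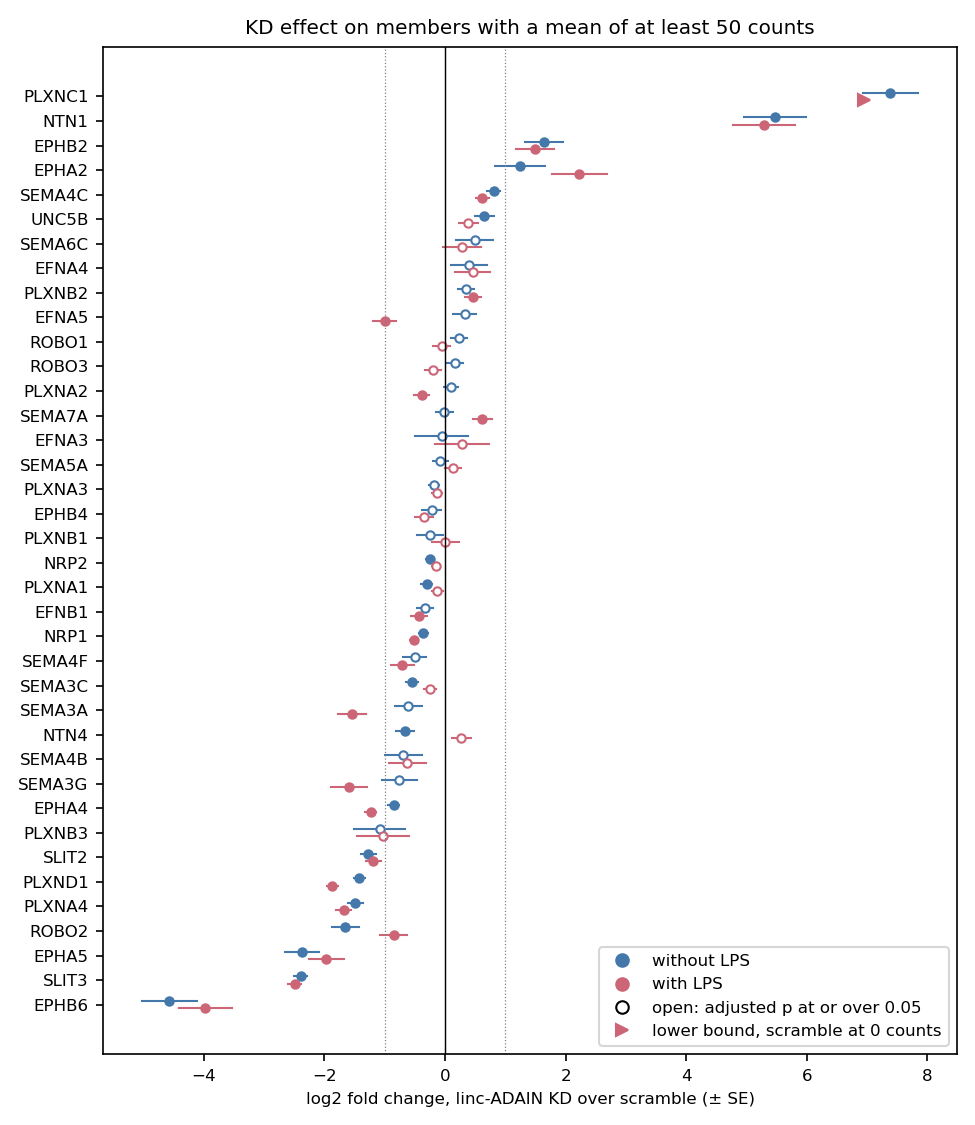
Log2 fold change of linc-ADAIN KD over scramble control (± SE) for the 38 tested members averaging 50 or more counts per library, without LPS (blue) and with LPS (red). Filled points passed an adjusted p of 0.05, dotted lines mark a 2-fold difference, and the triangle is the lower bound for PLXNC1, whose scramble libraries with LPS had 0 counts. EPHB6 and SLIT3 lie at the low end and PLXNC1 and NTN1 at the high end on both sides of LPS.

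Of the 3 Slit ligands, SLIT3 and SLIT2 fell, and SLIT1 was not called. On GRCh38 the gene SLIT3 spans positions 168661740 to 169301139 of chromosome 5 and SLIT2 positions 20251905 to 20620561 of chromosome 4. The 250 bases before each start site are shown because both genes fell. The windows are from RefSeq on GRCh38.p14, at chr5:169301140-169301389 on the minus strand and chr4:20251655-20251904 on the plus strand, and lie upstream of the genes with no exon of their own gene in them. Capitals mark matches, searched on both strands, to 5 motifs known from many promoters. The GC box was searched as GGGCGG, which is read by SP family factors. The CCAAT box was searched by the letters of its name. The core promoter element called the TATA box was searched as TATAAA. The E-box, which is bound by helix-loop-helix factors, was searched as CACGTG. The AP-1 site, where Fos and Jun proteins bind, was searched as TGANTCA with N for any base.
SLIT3: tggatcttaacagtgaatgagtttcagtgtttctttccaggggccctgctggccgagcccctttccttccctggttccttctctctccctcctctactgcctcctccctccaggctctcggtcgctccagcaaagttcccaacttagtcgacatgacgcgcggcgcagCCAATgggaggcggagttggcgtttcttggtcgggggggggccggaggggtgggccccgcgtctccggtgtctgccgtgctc
SLIT2: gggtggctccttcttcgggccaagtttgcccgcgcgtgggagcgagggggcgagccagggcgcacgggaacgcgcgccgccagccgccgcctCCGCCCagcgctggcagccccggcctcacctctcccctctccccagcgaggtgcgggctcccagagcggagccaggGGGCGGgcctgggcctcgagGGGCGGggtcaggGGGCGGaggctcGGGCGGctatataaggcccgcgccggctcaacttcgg
The SLIT2 window held 5 GC boxes, none of which overlapped, and the SLIT3 window 1 CCAAT box and no GC box. Of all 35116 promoters of this length in the table, 42.6% held a GC box, 32.0% a CCAAT box, 10.7% a TATA box, 6.35% an E-box and 6.57% an AP-1 site. The 57 members with an entry had 89 promoters, of which 70.8% held a GC box and 29.2% a CCAAT box. The windows were 77.2% G and C for SLIT2 and 62.8% for SLIT3, where the median of all promoters was 58.0%. A match is a stretch of letters and not a measured binding site.

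SLIT3 was at 415, 510 and 487 CPM in the scramble libraries and at 98.2, 83.3 and 87.5 CPM in the KD libraries. Under LPS it was at 421, 557 and 557 CPM in scramble control and at 94.2, 90.6 and 88.3 CPM in KD. Every KD library was below every scramble library by a wide gap. For SLIT3 the log2 fold change was -2.39 (SE 0.11, adjusted p = 4.5e-11 from edgeR's test) without LPS and -2.49 (SE 0.11, adjusted p = 1.9e-11) with LPS, a 5.25-fold and a 5.62-fold lower level. SLIT2 was at 30.7, 29.7 and 29.1 CPM in scramble control and 11.7, 12 and 13.4 CPM in KD. With LPS these were 31.4, 29.0 and 33.0 CPM in scramble control and 11.3, 13.3 and 16.4 CPM in KD, again without overlap. The log2 fold change came to -1.27 (SE 0.13, adjusted p = 4.7e-07 from edgeR's test) without LPS and -1.19 (SE 0.13, adjusted p = 8.6e-07) with LPS. The third Slit, SLIT1, had between 0 and 9 counts per library and was not called. Summed per length, the Slits were at 52.2 ± 5.01 CPM per kb in scramble control and 10.8 ± 0.75 CPM per kb in KD.

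The Robo receptors did not move as a family. ROBO1, the most abundant of them, was at 51.3 to 60.6 CPM in scramble control and 52.5 to 77.8 CPM in KD, ranges that overlapped, and ROBO3 was not called in any comparison. ROBO2, a Slit receptor at low level here, was at 5.14, 5.06 and 4.55 CPM in scramble control and 1.35, 1.86 and 1.46 CPM in KD. After LPS it was at 6.26, 6.14 and 5.41 CPM in scramble control and 3.62, 3.01 and 3.23 CPM in KD. The groups did not overlap on either side, and the log2 fold change of ROBO2 was -1.65 (SE 0.22, adjusted p = 2e-05 from edgeR's test) without LPS and -0.85 (SE 0.22, adjusted p = 0.0063) with LPS. ROBO4, the Robo known from endothelial cells, had 9, 6 and 0 counts in scramble control and 27, 37 and 54 in KD, and was called higher without LPS (adjusted p = 0.026 from edgeR's test, and up to 0.099 without scramble replicate 2 or 3 or KD replicate 3). With LPS it had 0 counts in each scramble library and 13 to 35 in KD, at least 7.84-fold higher when the scramble libraries are set to 3 counts each. Antisense genes cover 11.2% and 6.8% of the exon bases of ROBO4, and whether strand was used in counting is not stated.

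Among the semaphorin receptors, 2 plexins of high level fell and 1 with almost no counts in scramble control rose. PLXND1 (chromosome 3, 129555214 to 129606676) was at 401, 372 and 380 CPM in scramble control and 145, 120 and 165 CPM in KD. With LPS it was at 388, 390 and 386 CPM in scramble control and 102, 112 and 105 CPM in KD. The scramble libraries lay close together in both arms and above every KD library. It had a log2 fold change of -1.42 (SE 0.09, adjusted p = 2.1e-09 from edgeR's test) without LPS and -1.87 (SE 0.09, adjusted p = 7.3e-11) with LPS. PLXNA4 (chromosome 7, 132123340 to 132648688), an A-type plexin that works with neuropilins, was at 130, 165 and 150 CPM in scramble control and 55.7, 54.7 and 48.8 CPM in KD. Under LPS it was at 143, 193 and 169 CPM against 59.6, 54.1 and 44.3 CPM, so that no library overlapped. Its log2 fold change was -1.48 (SE 0.12, adjusted p = 4.2e-08 from edgeR's test) without LPS and -1.68 (SE 0.12, adjusted p = 6.5e-09) with LPS. Summed per length, the 9 plexins were at 105 ± 1.44 CPM per kb in scramble control and 62.7 ± 5.90 CPM per kb in KD.

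PLXNC1, the plexin that binds SEMA7A, went the other way. It is transcribed from the plus strand of chromosome 12 between 94148577 and 94307675, and the 250 bases before it, at chr12:94148327-94148576 of GRCh38.p14, are shown because it had the largest rise of any member averaging 50 or more counts. Capitals mark GC boxes, of which there were 5, some overlapping one another, and no other of the letters searched.
PLXNC1: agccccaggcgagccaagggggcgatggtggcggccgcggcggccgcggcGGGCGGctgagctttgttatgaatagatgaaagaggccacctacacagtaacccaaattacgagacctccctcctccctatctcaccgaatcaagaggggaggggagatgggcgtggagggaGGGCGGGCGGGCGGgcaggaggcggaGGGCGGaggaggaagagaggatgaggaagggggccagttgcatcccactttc
PLXNC1 had 0, 5 and 2 counts in the scramble libraries and 313, 491 and 263 counts in the KD libraries. With LPS it had 0 counts in each scramble library and 321, 551 and 272 counts in KD. The scramble groups were at or near 0 and every KD library had over 250 counts. Its log2 fold change without LPS was 7.39 (SE 0.46, adjusted p = 5.8e-09 from edgeR's test), a size that rests on a few scramble counts. After LPS it was at least 124-fold higher in KD, with the scramble libraries set to 3 counts each. At 1.10 CPM per kb in KD its level stayed far below that of PLXND1 at 20.8 CPM per kb. CEP83 and 3 unnamed genes on the other strand cover 1.8% to 3.9% each of its exon bases.

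The neuropilins differed little with the shRNA. NRP1 fell by 0.36 on the log2 scale without LPS (SE 0.07, adjusted p = 9.4e-04 from edgeR's test), from 743 ± 52.4 CPM to 580 ± 25.4 CPM, and by 0.51 with LPS. NRP2 and PLXNA1 fell by 0.25 and 0.30 without LPS only, and both calls were lost under scaling by the upper quartile or by library size alone. That of NRP2 was also lost without scramble replicate 3 or KD replicate 2 (adjusted p up to 0.092 from edgeR's test), and that of PLXNA1 without scramble replicate 2 or KD replicate 1 or 2 (up to 0.097). PLXNB2, a B-type plexin, rose by 0.47 with LPS, a call lost without scramble_LPS replicate 1 or 3 or KD_LPS replicate 2 (up to 0.090). PLXNA2 fell by 0.39 with LPS, a call lost without scramble_LPS replicate 3 or KD_LPS replicate 1 (up to 0.098).

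The secreted class 3 semaphorins had calls in both directions. SEMA3C, the most abundant, fell by 0.54 on the log2 scale without LPS (SE 0.10, adjusted p = 3.4e-04 from edgeR's test), from 178 ± 10.6 CPM to 122 ± 11.8 CPM. SEMA3A, the classical repellent that acts through NRP1, was at 5.45, 5.55 and 6.17 CPM in scramble control and 4.23, 3.77 and 3.28 CPM in KD. With LPS it was at 6.08, 7.86 and 10.1 CPM against 2.83, 2.3 and 3.16 CPM. Neither arm overlapped, and the log2 fold change of SEMA3A was -0.61 (SE 0.22, adjusted p = 0.055 from edgeR's test) without LPS and -1.54 (SE 0.23, adjusted p = 4.5e-05) with LPS. SEMA3G was at 8.28, 13.2 and 15 CPM in scramble control and 9.45, 7.13 and 5.09 CPM in KD, which overlapped. Under LPS it was at 13.7, 22.2 and 18.0 CPM in scramble control and 7.98, 6.71 and 3.02 CPM in KD, which did not. The log2 fold change came to -0.75 (SE 0.30, adjusted p = 0.074 from edgeR's test) without LPS and -1.59 (SE 0.30, adjusted p = 5.6e-04) with LPS. For neither SEMA3A (adjusted p = 0.21) nor SEMA3G (adjusted p = 0.48) did the interaction in edgeR's test show that the KD effect differed with LPS.

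A further 3 secreted semaphorins, of low count, were also called. SEMA3F had 30, 2 and 18 counts in scramble control and 45, 115 and 69 in KD, and with LPS 4, 7 and 0 against 53, 83 and 39. It was called higher on both sides, by 2.36 and 3.85 on the log2 scale, but without LPS the call was lost without scramble replicate 2 or 3 or KD replicate 2 or 3 (adjusted p up to 0.10). SEMA3B had 122, 113 and 38 counts in scramble control and 6, 16 and 16 in KD, and was called lower without LPS only. SEMA3E was called lower with LPS, where its scramble libraries ranged from 0 to 1.43 CPM and its KD libraries from 0 to 0.105 CPM, and that call was lost without scramble replicate 2 or 3, scramble_LPS replicate 1 or 2, or KD_LPS replicate 1 or 2 (adjusted p up to 0.14 from edgeR's test). The depth at these genes leaves the size of each change uncertain.

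The semaphorins of classes 4 to 7, mostly membrane-bound, had few calls. Of 12 tested, SEMA4C alone was called without LPS, rising by 0.81 on the log2 scale (SE 0.11, adjusted p = 2.6e-05 from edgeR's test), and with LPS by 0.62. Besides SEMA4C, SEMA7A rose by 0.62 and SEMA4F fell by 0.71 with LPS, where SEMA4F missed the threshold without KD_LPS replicate 3 (adjusted p = 0.050 from edgeR's test). The other 9 were called on neither side of LPS, among them SEMA5A, the most abundant of these at 27.6 to 40.9 CPM over the 12 libraries.

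Among the netrins, NTN1 rose from near 0 and NTN4 fell without LPS. NTN1 (chromosome 17, 9021510 to 9244000), the founding netrin, had 3, 5 and 5 counts in the scramble libraries and 137, 184 and 182 in KD. With LPS it had 1, 7 and 3 counts against 114, 182 and 146. All KD libraries had over 100 counts and no scramble library reached 10. It had a log2 fold change of 5.47 (SE 0.51, adjusted p = 2.3e-07 from edgeR's test) without LPS and 5.29 (SE 0.52, adjusted p = 3.4e-07) with LPS. Per length NTN1 reached 0.66 CPM per kb in KD, below NTN4, a netrin of basement membranes, at 2.75 CPM per kb. UNC5B, the one UNC5 receptor of appreciable level, rose by 0.65 on the log2 scale without LPS (SE 0.16, adjusted p = 0.0038 from edgeR's test), from 48.3 ± 11.3 CPM to 76.1 ± 18.3 CPM. With LPS its log2 fold change was 0.39 (SE 0.16, adjusted p = 0.077 from edgeR's test), which did not pass. UNC5C had between 0 and 9 counts per library and was not called.

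**Figure D3:**
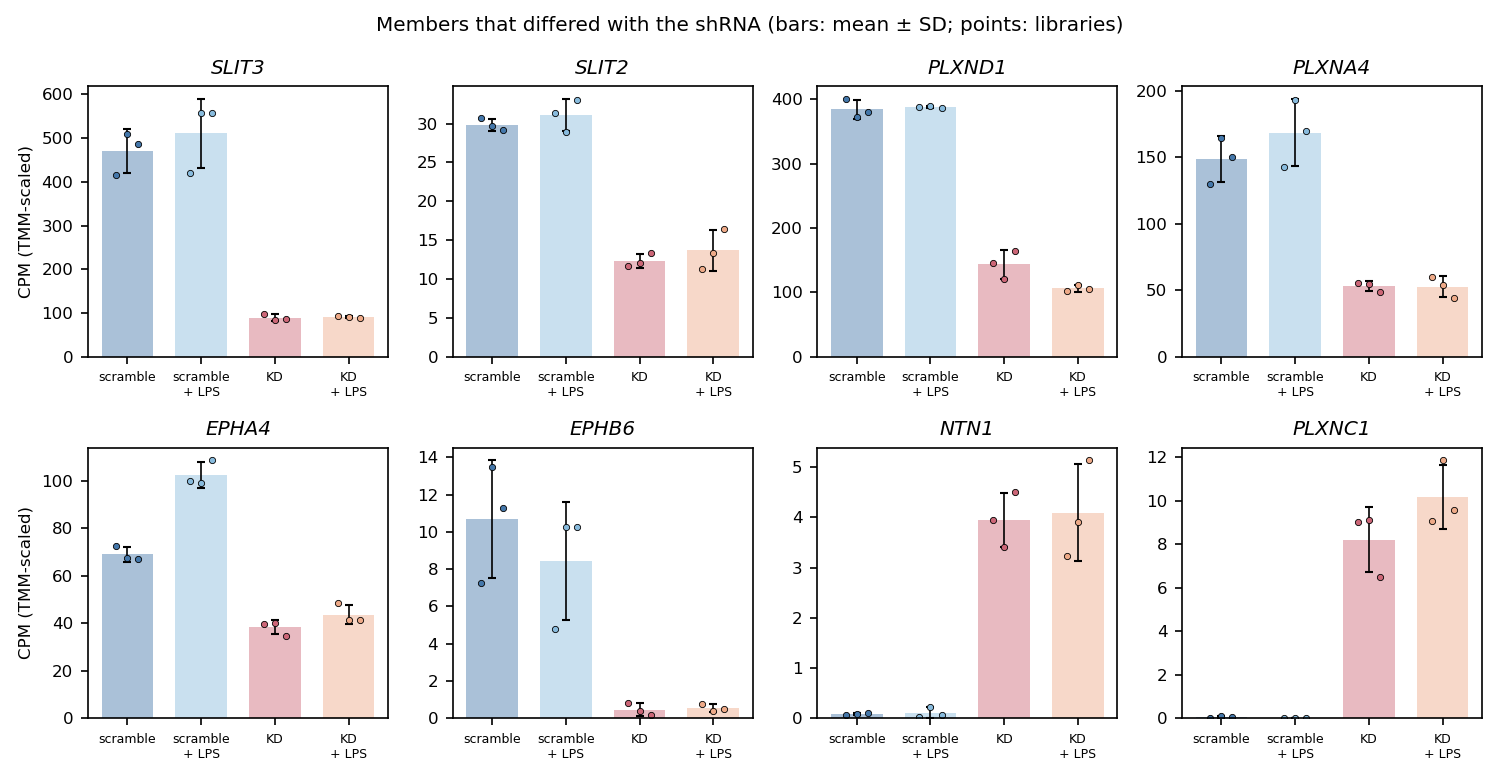
TMM-scaled CPM of 8 members that differed with the linc-ADAIN shRNA, in scramble control and KD, each without and with LPS. Points are the 3 libraries of a group and bars the mean ± SD. The KD libraries lie below all scramble libraries for SLIT3, SLIT2, PLXND1, PLXNA4, EPHA4 and EPHB6 and above them for NTN1 and PLXNC1, and SLIT3 falls from a mean of 471 CPM to 89.7 CPM without LPS.

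The Eph receptors changed in both directions. EPHA4, a receptor that binds both ephrin-A and ephrin-B ligands and the most abundant Eph receptor here per length, was at 72.4, 67.6 and 67.1 CPM in scramble control and 39.9, 40.1 and 34.9 CPM in KD. After LPS it was at 100.0, 99.0 and 109 CPM against 48.5, 41.2 and 41.3 CPM. The groups were well apart, and its log2 fold change was -0.85 (SE 0.09, adjusted p = 7.8e-07 from edgeR's test) without LPS and -1.23 (SE 0.09, adjusted p = 5.5e-09) with LPS. EPHB6, an Eph receptor that lacks kinase activity, was at 7.23, 13.5 and 11.3 CPM in scramble control and 0.835, 0.371 and 0.173 CPM in KD. With LPS it was at 4.78, 10.3 and 10.3 CPM against 0.764, 0.366 and 0.492 CPM. The KD libraries were near 0 in both arms, with 7 to 29 counts each. Its log2 fold change of -4.57 (SE 0.45, adjusted p = 4.6e-07 from edgeR's test) without LPS and -3.97 (SE 0.45, adjusted p = 1.7e-06) with LPS was the lowest of any member averaging 50 or more counts.

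EPHA5 was at 5.64, 6.47 and 6.34 CPM in scramble control and 1.73, 0.928 and 0.938 CPM in KD. Under LPS it was at 7.62, 5.68 and 6.19 CPM against 2.15, 1.27 and 1.58 CPM, again with no overlap. Its log2 fold change was -2.37 (SE 0.29, adjusted p = 5.5e-06 from edgeR's test) without LPS and -1.97 (SE 0.28, adjusted p = 3.3e-05) with LPS. EPHB2 and EPHA2, receptors for ephrin-B and ephrin-A ligands, rose. EPHB2 was at 1.46, 1.33 and 1.18 CPM in scramble control and 4.18, 3.34 and 4.94 CPM in KD. With LPS the levels were 2.28, 2.11 and 1.29 CPM against 3.34, 6.80 and 5.80 CPM. The groups did not overlap, and its log2 fold change was 1.64 (SE 0.31, adjusted p = 6.2e-04 from edgeR's test) without LPS and 1.49 (SE 0.31, adjusted p = 0.0013) with LPS. EPHA2 was at 1.27, 2.34 and 1.05 CPM in scramble control and 3.08, 3.19 and 4.84 CPM in KD. After LPS it was at 0.741, 0.297 and 0.305 CPM against 1.81, 1.63 and 2.95 CPM. No library overlapped. The log2 fold change came to 1.25 (SE 0.42, adjusted p = 0.034 from edgeR's test) without LPS and 2.23 (SE 0.46, adjusted p = 0.0011) with LPS. The call without LPS was lost without scramble replicate 1 or 3 or KD replicate 3 (adjusted p up to 0.14).

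The ephrin ligands were not called without LPS. With LPS, EFNB1 fell by 0.43 on the log2 scale (SE 0.13, adjusted p = 0.021 from edgeR's test), a call lost when any of 4 libraries was left out (scramble_LPS replicate 2 or 3, KD_LPS replicate 1 or 3, with adjusted p up to 0.12), and EFNA5 fell as given with the interaction. EFNA3 and EFNA4 share 43.9% and 15% of their exon bases with a readthrough gene that joins them, so that counts could be split between them. Neither was called.

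The second question was how the guidance genes responded to LPS. In scramble control 11 of the 58 members (19%) were called, 4 higher and 7 lower, against 13.4% of all genes (5.28% higher and 8.11% lower), and 3 of them (5.17%) by at least 2-fold against 2.49%. The groups did not overlap for 15 members (25.9%) against 30% of all genes. In KD 7 members (12.1%) were called, 3 higher and 4 lower, against 11.8% of all genes (5.21% higher and 6.59% lower), and 3 of them by at least 2-fold against 2.21%. Here 20 members (34.5%) did not overlap, against 25.7% of all genes. The 4 members called with either shRNA were NRP2, which rose, and SEMA7A, EFNB1 and PLXNA2, which fell. Without scramble replicate 2 the count in scramble control was 5.

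NRP2 (chromosome 2, 205681990 to 205798133), the neuropilin that binds SEMA3C, SEMA3F and VEGF-C, was at 177, 172 and 194 CPM in scramble control and 425, 472 and 444 CPM with LPS. In KD it was at 153, 143 and 160 CPM without LPS and 411, 383 and 414 CPM with it. Every LPS library was above every library without LPS by a wide gap. For NRP2 the log2 fold change was 1.31 (SE 0.07, adjusted p = 1.2e-09 from edgeR's test) in scramble control and 1.40 (SE 0.08, adjusted p = 4.1e-10) in KD. NRP1 was not called with LPS.

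Of the called members, SEMA7A fell most with LPS in both backgrounds. It is transcribed from the minus strand of chromosome 15 between 74409289 and 74433958, and the 250 bases before it, at chr15:74433959-74434208 of GRCh38.p14, are shown for that reason. Capitals mark 3 GC boxes and no other of the letters searched.
SEMA7A: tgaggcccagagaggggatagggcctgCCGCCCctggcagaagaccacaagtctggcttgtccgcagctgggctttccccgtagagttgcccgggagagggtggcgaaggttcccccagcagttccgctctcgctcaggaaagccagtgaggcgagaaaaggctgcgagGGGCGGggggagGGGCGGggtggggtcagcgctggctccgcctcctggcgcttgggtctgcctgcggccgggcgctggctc
SEMA7A was at 44, 42.1 and 34.5 CPM in scramble control and 7.47, 7.40 and 7.76 CPM with LPS. In KD it was at 34.6, 36.4 and 48.9 CPM without LPS and 10.02, 11.2 and 13.7 CPM with it. The LPS libraries lay far below the others. It had a log2 fold change of -2.41 (SE 0.15, adjusted p = 3.6e-09 from edgeR's test) in scramble control and -1.78 (SE 0.15, adjusted p = 1.3e-07) in KD. The difference between these, 0.63 (SE 0.20), was not called as an interaction (adjusted p = 0.18 from edgeR's test). SEMA7A set the sum of the semaphorins of classes 4 to 7, which was 22.0 ± 2.61 CPM per kb in scramble control and 12.7 ± 0.09 CPM per kb with LPS.

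EFNB1 was at 57.5, 58.0 and 64.5 CPM in scramble control and 36.0, 41.1 and 39.5 CPM with LPS. In KD it was at 57.8, 41.9 and 43.3 CPM without LPS and 28.2, 34.4 and 23.7 CPM with it, so that neither pair of groups overlapped. Its log2 fold change was -0.63 (SE 0.13, adjusted p = 0.0029 from edgeR's test) in scramble control and -0.72 (SE 0.13, adjusted p = 9.9e-04) in KD. PLXNA2 was at 35.1, 36.4 and 31.4 CPM in scramble control and 24.3, 24.0 and 25.0 CPM with LPS. In KD it was at 39.0, 34.1 and 37.2 CPM without LPS and 15.1, 21.7 and 19.3 CPM with it. LPS libraries were the lower ones throughout. The log2 fold change came to -0.49 (SE 0.12, adjusted p = 0.0087 from edgeR's test, and 0.052 without scramble replicate 2) in scramble control and -0.97 (SE 0.12, adjusted p = 1.7e-05) in KD.

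**Figure D4:**
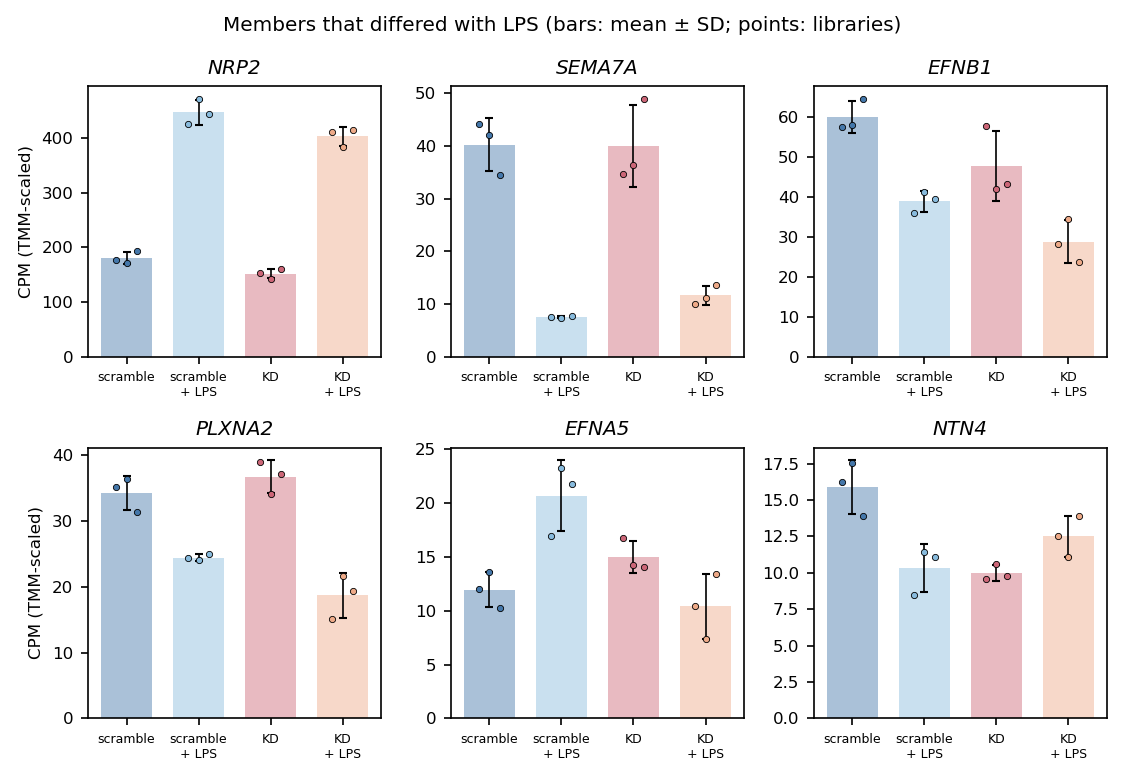
TMM-scaled CPM of 6 members that differed with LPS or in the interaction of KD with LPS, by group. Points are the 3 libraries and bars the mean ± SD. With either shRNA NRP2 is higher and SEMA7A, EFNB1 and PLXNA2 are lower with LPS, whereas EFNA5 has its highest mean, 20.7 CPM, in scramble control with LPS and NTN4 its highest, 15.9 CPM, in scramble control without LPS.

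Other calls with LPS were made for 1 shRNA only. In scramble control EPHA2 fell by 1.78 on the log2 scale (SE 0.45, adjusted p = 0.012 from edgeR's test), a call lost without scramble replicate 2, scramble_LPS replicate 2 or scramble_LPS replicate 3 (up to 0.093). PLXNA1 fell by 0.36 and PLXNA3 by 0.27, while EPHA4 rose by 0.57 and ROBO1 by 0.47. The call of PLXNA1 was lost without scramble replicate 2 or scramble_LPS replicate 1 (up to 0.074) and that of ROBO1 without scramble replicate 2 or 3 or scramble_LPS replicate 1 or 3 (up to 0.15). The call of PLXNA3 was lost without any of 9 of the 12 libraries, the exceptions being KD replicate 1 and KD_LPS replicates 2 and 3 (up to 0.17). In KD, ROBO2 rose by 1.07 (SE 0.23, adjusted p = 0.0034 from edgeR's test), with the libraries given above for both groups, and SEMA3C rose by 0.48 while PLXND1 fell by 0.43. For none of these genes was the interaction called.

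The third question was whether the effect of the KD differed between the arms with and without LPS. In the interaction, 2 members were called, 1 higher and 1 lower, or 3.45% against 1.28% of all genes (0.943% higher and 0.332% lower). EFNA5, an ephrin-A ligand (chromosome 5, 107376894 to 107670937), was at 12, 13.6 and 10.3 CPM in scramble control and 17.0, 23.3 and 21.8 CPM with LPS. In KD it was at 16.7, 14.3 and 14.0 CPM without LPS and 10.4, 7.36 and 13.4 CPM with it. It was thus higher with LPS in scramble control and lower with LPS in KD, with no overlap in either. The log2 fold change with LPS was 0.79 (SE 0.18, adjusted p = 0.0071 from edgeR's test) in scramble control and -0.54 (SE 0.19, adjusted p = 0.077) in KD, and the interaction was -1.32 (SE 0.26, adjusted p = 0.017, and 0.051 without KD replicate 1).

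NTN4 (chromosome 12, 95657807 to 95791189) was at 16.2, 17.5 and 13.9 CPM in scramble control and 8.46, 11.5 and 11.1 CPM with LPS. In KD it was at 9.56, 10.6 and 9.78 CPM without LPS and 12.5, 11.1 and 13.9 CPM with it. The scramble libraries with LPS were all below those without it, while in KD the LPS libraries were all above the others. The log2 fold change with LPS was -0.62 (SE 0.15, adjusted p = 0.0088 from edgeR's test, and 0.061 without scramble replicate 2) in scramble control and 0.32 (SE 0.15, adjusted p = 0.21) in KD, and the interaction was 0.94 (SE 0.21, adjusted p = 0.034). Leaving out any of 8 libraries ended the call of the interaction (adjusted p up to 0.13). Without LPS, NTN4 fell with the KD by 0.67 (SE 0.15, adjusted p = 0.0024 from edgeR's test).

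The remaining 25 tested members were called in none of the 5 comparisons. Of these, 9 averaged 50 or more counts per library: EFNA3, EFNA4, EPHB4, PLXNB1, PLXNB3, ROBO3, SEMA4B, SEMA5A and SEMA6C. The most abundant, SEMA5A, EPHB4, ROBO3 and PLXNB1, had log2 fold changes no larger than 0.21, 0.34, 0.41 and 0.32 in size. Larger ones were seen for PLXNB3 and SEMA4B, up to 1.08 and 0.69 in size. Their lowest adjusted p values were 0.071 and 0.11 from edgeR's test. Without LPS, the KD libraries of both lay below all scramble libraries. The other 16 had means under 50 counts, and differences among them were not detectable at this depth unless large: EFNA1, EFNB2, EFNB3, EPHA1, EPHA10, EPHB1, EPHB3, SEMA3D, SEMA4A, SEMA4D, SEMA4G, SEMA6A, SEMA6B, SEMA6D, SLIT1 and UNC5C. PLXNB3, SEMA4G and EFNB2 share 20.4%, 22.9% and 36.4% of their exon bases with another gene.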

How the data were processed

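RNA-seq was performed on poly(A) RNA of 12 libraries, 3 in each of 4 groups taken from the sample labels. The authors pseudoaligned reads with kallisto and deposited estimated counts summed per gene name, not normalized for depth or length. The submitters' processing notes name bcl2fastq 2.19, kallisto 0.44.0, DESeq2 1.32.0 and GRCh38. The annotation release, the program that summed transcripts and the use of strand are not given in the sources used here. A row with no gene name, 0.235% to 0.306% of a library, was left out.

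After rounding, the 17173 genes with 10 or more counts over the 12 libraries were kept. In R 4.3.3, edgeR 4.0.16 scaled libraries by TMM and fitted all 12 libraries in 4 groups. Its quasi-likelihood F test was adjusted by Benjamini-Hochberg over all genes tested. The standard error is the size of the log2 fold change divided by the square root of F. A gene was called at an adjusted p under 0.05. An exact two-sided permutation test of 3 libraries against 3 cannot go below p = 0.1. Group totals had medians of 53.5, 40.8, 38.5 and 34.8 M for scramble, scramble with LPS, KD and KD with LPS, a depth that limits genes of few counts. Where a group was at 0, a fold is a lower bound against 3 counts per library.

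Members, lists and tests were chosen with earlier results of these data known. Called members with a mean of at least 50 counts were described, at most 12 a comparison by size with the rest named more briefly, and values per library were given for those at least 2-fold in KD, 1.5-fold with LPS, or called in the interaction. Members called at lower counts were named with their counts. Lengths and positions are of GENCODE 44, which held all 67 members, and promoters are from RefSeq on GRCh38.p14. The steps were tested on simulated data. Alternatives were other scalings and filters, DESeq2 1.42.0, 6-library fits, a replicate block and leaving out each library.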

Additional observations from a re-analysis of the deposited data

Results flagged for a closer look

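These 2 results were picked out because the effect of the linc-ADAIN shRNA differed between the arms with and without LPS by edgeR's test of the interaction. For EFNA5 the difference was -1.32 on the log2 scale (adjusted p = 0.017), from 0.33 without LPS to -0.997 with LPS, with 3 libraries in each group. Leaving out 1 library at a time gave adjusted p values from 0.0061 to 0.051, and the highest of these, without KD replicate 1, missed the threshold. For NTN4 the difference was 0.94 (adjusted p = 0.034), from -0.67 without LPS to 0.27 with LPS, and the call was lost in 8 of the 12 fits that leave out 1 library, with adjusted p up to 0.13. Those fits left out scramble replicate 1 or 2, scramble_LPS replicate 1 or 3, KD replicate 1 or 3, or KD_LPS replicate 1 or 3. The summed adipocyte marker level also differed between the groups, at 3494 to 4792 CPM in scramble control and 625 to 1334 CPM in KD with LPS, and its part in either result was not tested.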

How the results depend on the processing

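Of 67 called member results over the 5 comparisons, 49 stayed called in every alternative, 18 lost the call in at least 1 and none reversed. Among alternatives that keep all libraries, 59 stayed called. Leaving out each library gave 18 to 26 members called for the KD without LPS (22 with all libraries), 22 to 27 with LPS (25), 5 to 11 for LPS in scramble control (11), 7 to 8 for LPS in KD (7) and 0 to 3 for the interaction (2). The lowest interaction count was without KD replicate 1 and the lowest for LPS in scramble control without scramble replicate 2, at 5. The other alternatives gave 20 to 28, 24 to 27, 10 to 12, 7 to 10 and 2 to 3. Scaling by library size alone moved the median log2 fold change of all genes from 0.01 to 0.12 for the KD without LPS. Under it the calls of NRP2 and PLXNA1 without LPS and of EFNB1 and PLXNA2 with LPS were lost. With median transcript length in place of the canonical one, 35 members reached 1 CPM per kb. By that length PLXND1 and SEMA3C ranked above NRP1, their median transcripts being 626 and 582 bases against 2508.5 for NRP1. The order of the members and their shares of the summed level thus depend on the length used. The replicate numbers did not consistently pair the libraries: deviations of same-numbered libraries correlated between -0.14 and 0.25, with 4 of 18 pairs over 0.1. The highest, 0.25, was between replicate 1 of scramble control without and with LPS, so pairing within an shRNA was not excluded. The replicate block shares its replicate effects between both shRNAs and cannot decide this. With the replicate block the counts were 20, 24, 10, 7 and 2, and EPHA2 and ROBO4 without LPS and SEMA3E with LPS were among the calls lost. The cause of these changes was not tested. Depth limits the members with under 50 counts.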

Other observations

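Partners of the guidance proteins were read from the same fit. Of 16 co-receptors and related cues, 14 were tested, and without LPS 1 was higher and 1 lower in KD, where 11.2% and 14.3% of all genes were. NEO1, a receptor for netrins and repulsive guidance molecules, rose from 12.3 ± 1.62 to 20.5 ± 3.59 CPM (log2 fold change 0.73, adjusted p = 6.2e-04 from edgeR's test), and RGMB, one of those molecules, fell from 80.1 ± 9.39 to 52.3 ± 5.32 CPM (-0.62, adjusted p = 7.4e-05). DCC, the classical netrin receptor, had at most 3 counts in any library. With LPS in both arms NEO1 was higher and RGMB and NRCAM lower. With LPS, FLRT2, a membrane protein that binds UNC5 receptors, rose with either shRNA, by 0.45 in scramble control and 0.59 in KD.

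Of 44 cytoplasmic effectors, 43 were tested. In KD without LPS, 6 rose and 12 fell, where 11.2% and 14.3% of all genes did. With LPS in both arms 8 rose and 9 fell, against 12.7% and 14.1%. The median log2 fold change was -0.12 without LPS, against 0.01 for all genes, and 0.03 with LPS, against 0.02. TIAM1, an exchange factor for Rac, fell from 24.9 ± 2.70 to 3.68 ± 0.15 CPM without LPS (log2 fold change -2.76, adjusted p = 3.2e-08 from edgeR's test). VAV3, another exchange factor, was at 0 counts throughout scramble control but had 174 to 216 counts per KD library without LPS. ABLIM1, an actin-binding LIM protein, rose by 1.59 on the log2 scale. For LPS, 4 were higher and 9 lower in scramble control, where 5.28% and 8.11% of all genes were. In KD 4 were higher and 10 lower, against 5.21% and 6.59%. In the interaction 2 were called, RASA1 (0.60) and VASP (0.58), with an adjusted p of 0.034 each from edgeR's test. Of all genes, 1.28% were called there. Of the small GTPases these effectors serve, RHOA and CDC42 were not called with the KD. RAC1 was called with LPS only, rising from 268 ± 8.82 to 304 ± 3.21 CPM (log2 fold change 0.18, adjusted p = 0.042 from edgeR's test).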
